A study of Mus musculus with 10 samples.

Results

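The 10 genes described here encode the isoforms of 4 enzymes of glucose breakdown in the mouse: hexokinase (Hk1 and Hk2), phosphofructokinase (Pfkl, Pfkm and Pfkp), lactate dehydrogenase (Ldha and Ldhb) and enolase (Eno1, Eno2 and Eno3). They were picked by gene name from a table of 57825 genes, in which each of the 10 names occurs in 1 row, and all 10 passed the filter on low values that left 15710 genes for testing. CD8+ T cells isolated from spleens of female Balb/c mice were activated for 12 h with plate-bound anti-CD3, anti-CD28 and IL-2, kept for 24 h without or with sodium acetate (NaAc), and then co-cultured for 48 h with 4T1 cells, a mouse mammary carcinoma line. RNA of the purified CD8+ T cells was sequenced at day 3, with 5 samples of untreated co-cultures (CD8+4T1) and 5 of co-cultures given NaAc at 5 mM (CD8+4T1+NaAc). All samples thus share the activation and the contact with tumor cells, and no group without 4T1 cells is part of the comparison. Nothing in the labels says whether the 5 samples of a group came from separate mice or cultures, so that the p-values measure the spread between these samples, which may be technical.

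Activated T cells take up glucose and turn much of it into lactate even when oxygen is present, a program known as aerobic glycolysis. Hexokinase traps glucose in the cell by phosphorylation, phosphofructokinase makes the committed step, enolase forms phosphoenolpyruvate, and lactate dehydrogenase converts pyruvate and lactate into each other while recycling NAD. The isoforms of each enzyme catalyze the same reaction but differ in kinetics, regulation and the tissues in which they predominate, which is why the makeup of each family is described here beside its amount.

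Levels are given as FPKM, in which the fragments of a gene are divided by its length and by the sequencing depth of the sample, so that levels of different genes can be set side by side. The samples held between 16306447 and 18853726 fragments, and each member rested on between 650 and 48816 fragments in a sample. Changes were tested with limma on log2(FPKM + 0.1), with Benjamini-Hochberg adjustment over all 15710 genes, and a gene was called at an adjusted p under 0.05. Shares and family totals were compared with two-sided exact permutation tests of the 5 against 5 samples, for which the smallest possible p is 0.00794, and adjusted over the 12 comparisons made (8 distinct shares and 4 totals).

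The CD8+ T cell label was borne out by the markers, since all 16 T cell genes examined were expressed, with a sum of 1548 to 1728 FPKM without and 1286 to 1651 FPKM with NaAc. Of 20 genes typical of 4T1 and other epithelial cells, 11 passed the filter, and their sum over the 20 genes was 36.5 to 48.3 FPKM without and 137.6 to 289.0 FPKM with NaAc. Keratin 8 (Krt8) was at 3.42 ± 1.69 (SD, n = 5) FPKM without and 34.2 ± 13.1 (n = 5) FPKM with NaAc, whereas Krt5 and Esrp1 were at or near 0 in both groups. By the means, the largest parts of the sum with NaAc were Spp1 (12.7 FPKM without and 78.5 FPKM with NaAc) and Lcn2 (3.99 and 40.2 FPKM). Sfn (12.9 and 12.7 FPKM) and Cldn7 (0.649 and 0.637 FPKM) were alike in both groups. Of the 11 tested epithelial genes 7 were called higher with NaAc and none lower (17.6% and 19.0% over all genes tested), and the sums of the groups did not overlap. Of the 16 T cell genes 7 were called lower and 1 higher (19.0% and 17.6% over all genes tested). The part of these markers in the results on the isoforms was not tested. In bulk RNA, fewer cells of a type and less RNA per cell cannot be told apart. Replicate 1 of CD8+4T1+NaAc stood apart from the other 4 samples of its group, with 20233 genes above 0 against at least 24681 and with the lowest T cell sum of the study (1286 FPKM), and results that rest on it are given with and without it.

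Of the 10 isoforms, 6 fell with NaAc (Hk1, Hk2, Pfkl, Pfkp, Ldha and Eno1) and 2 rose (Pfkm and Eno3), whereas Ldhb and Eno2 did not pass the test. Over all genes tested, 19.0% were called lower and 17.6% higher. Each of the 10 isoforms averaged more than 5 FPKM. In a fit of only the 7800 genes averaging at least 5 FPKM, 2476 were called lower and 1257 higher, so that lower calls were more common among them. The groups did not overlap for the same 8 isoforms, 6 of them lower and 2 higher with NaAc, against 13.3% and 13.1% of all genes tested. The median log2 fold change was -0.34 over the isoforms, -0.02 over all genes tested and -0.08 over the 7800 genes averaging at least 5 FPKM. Summed over the 10 genes, the level was 1492 ± 85.4 (SD, n = 5) FPKM without and 1081 ± 68.5 (n = 5) FPKM with NaAc. Without NaAc replicate 1, 7 isoforms were called lower and 2 higher, Eno2 being the additional one, while 22.7% and 21.6% of all genes tested were called lower and higher.

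**Figure D1:**
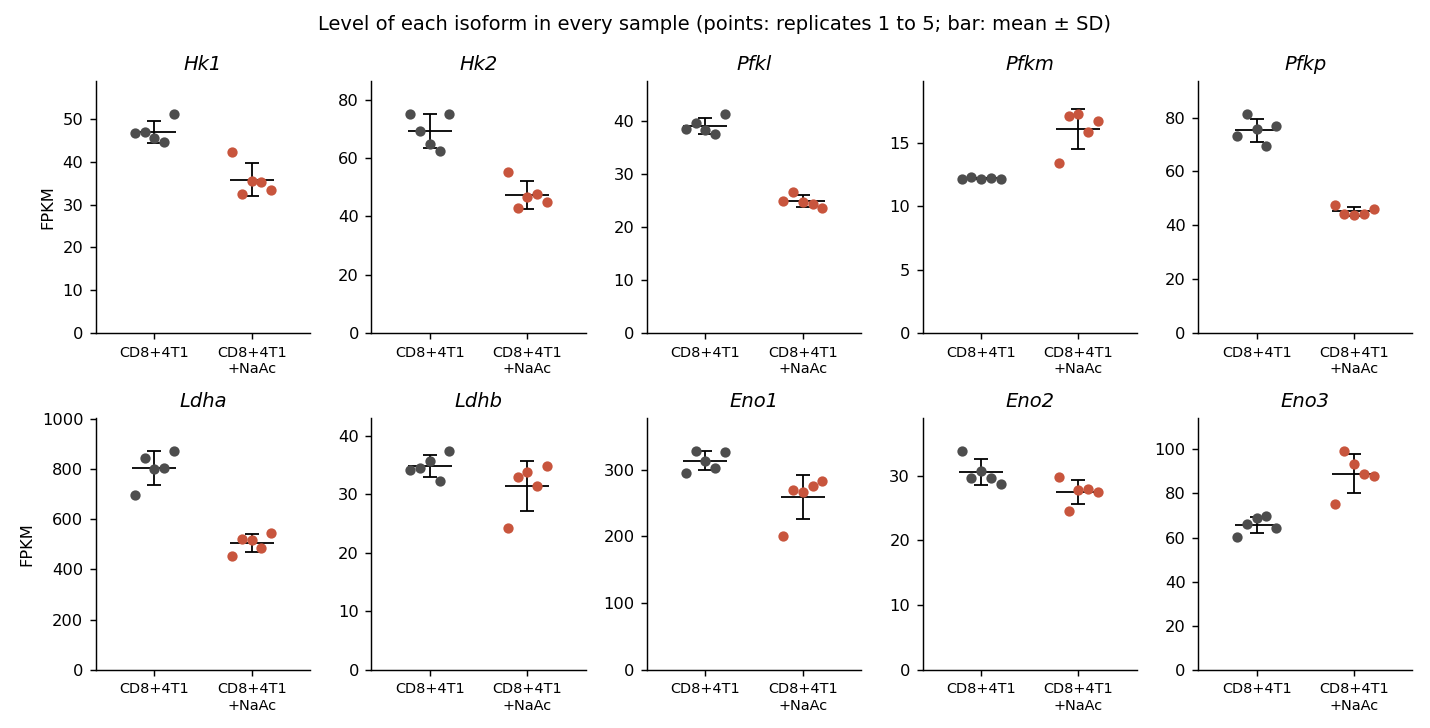
Level of each of the 10 isoforms in FPKM (vertical axes, each from 0) in the 5 CD8+4T1 samples (grey) and the 5 CD8+4T1+NaAc samples (red), ordered by replicate number, with the mean and SD as black bars. The groups are separate for 8 isoforms, Pfkm and Eno3 are the 2 that lie higher with NaAc, and Ldhb and Eno2 overlap.

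Levels spanned a wide range. By the FPKM of their own rows, Ldha was the highest isoform in each of the 10 samples, followed by Eno1, and Ldha stood 1.76 to 2.68 times above Eno1 within a sample. With the FPKM of annotated copies added to both genes, Eno1 lay above Ldha in all 10 samples (means of 1236 and 811 FPKM without NaAc). With the fragments of the copies added instead, chosen after seeing the data, Ldha was the higher by the means. It then held 95.8% of 841 FPKM of its family without and 94.2% of 538 FPKM with NaAc, and Eno1 85.5% of 667 FPKM and 78.9% of 554 FPKM. By the FPKM of the rows, Pfkm was the least abundant isoform in each of the 10 samples. Within every family the order of the isoforms was the same in 10 of 10 samples: Hk2 above Hk1, Pfkp above Pfkl above Pfkm, Ldha above Ldhb, and Eno1 above Eno3 above Eno2. This order holds per length as listed. In fragments, Hk1 exceeded Hk2 in 2 of 5 samples without and 5 of 5 with NaAc, and Eno2 exceeded Eno3 in 5 of 5 without and 1 of 5 with NaAc. Between families the middle of the order was not fixed. Eno3 lay above Pfkp in 6 of 10 samples, Pfkp above Hk2 in 6, and Ldhb above Pfkl in 4, counts that pool 2 groups with different levels. With NaAc, Eno3 (75.1 to 99.4 FPKM) lay above Pfkp (43.9 to 47.5 FPKM) in every sample. Without NaAc their ranges met, at 60.3 to 69.6 and 69.5 to 81.4 FPKM. Ldhb (32.3 to 37.4 FPKM) lay below Pfkl (37.5 to 41.3 FPKM) in every sample without NaAc, whereas with NaAc their ranges overlapped. Pfkp and Hk2 overlapped in each group.

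Hexokinase fell in both isoforms and changed slightly in makeup. Hk2, the isoform that is induced in activated and proliferating cells, stood at 75.1, 69.2, 64.7, 62.3 and 75.1 FPKM in CD8+4T1 replicates 1 to 5 and at 55.1, 42.7, 46.6, 47.6 and 44.9 FPKM in CD8+4T1+NaAc replicates 1 to 5. Every NaAc sample lay below every sample without NaAc, and NaAc replicate 1 was the highest of its group. The level of Hk2 with NaAc was 0.684 times that without (95% interval 0.606 to 0.771; limma log2 fold change -0.55, SE 0.08, adjusted p = 3.9e-04).

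Hk1, the widely expressed isoform that binds to mitochondria, was at 46.7, 47.0, 45.5, 44.5 and 51.2 FPKM without NaAc. With NaAc its values were 42.4, 32.6, 35.4, 35.2 and 33.5 FPKM. Here too the groups were separate, with NaAc replicate 1 again nearest to the samples without NaAc. The log2 fold change was -0.40 (SE 0.07, limma adjusted p = 0.0016), or 0.76 times the level without NaAc, and with the samples scaled to the T cell markers it was -0.24 and no longer called (adjusted p = 0.12).

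Hk1 made up 40.5 ± 1.28% (SD, n = 5) of hexokinase FPKM without NaAc and 43.0 ± 0.403% (n = 5) with NaAc, with Hk2 as the remainder. The difference of 2.57 percentage points had an exact permutation p of 0.00794 (adjusted 0.011), and all 5 NaAc samples (42.5 to 43.5%) lay above all 5 samples without it (38.4 to 41.7%). The hexokinase total went from 116.2 ± 8.04 to 83.2 ± 8.53 FPKM (n = 5 each), 0.716 times the level without NaAc (exact permutation p = 0.00794, adjusted 0.011). Under T cell marker scaling the fall of this total was 22.1 FPKM and was not called (exact permutation p = 0.056, adjusted 0.074). Hk3 was at most 0.466 FPKM in any sample and Hkdc1 at most 0.0945 FPKM.

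The makeup of phosphofructokinase shifted, as its 2 more abundant isoforms fell and its least abundant one rose. Pfkp, the platelet isoform, was at 73.0, 81.4, 75.6, 69.5 and 76.7 FPKM in CD8+4T1 and at 47.5, 44.1, 43.9, 44.3 and 46.2 FPKM in CD8+4T1+NaAc. The 5 NaAc values were close together and far below the others. With the FPKM as deposited this was the largest change among the 10 isoforms, a log2 fold change of -0.73 (SE 0.05, limma adjusted p = 1.2e-05), which leaves 0.602 times the level without NaAc (95% interval 0.557 to 0.65).

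Pfkl, the liver isoform, stood at 38.5, 39.5, 38.2, 37.5 and 41.3 FPKM without NaAc and at 24.8, 26.6, 24.8, 24.2 and 23.6 FPKM with it. The groups were separate, and the gap between them was wider than the range within either. Its log2 fold change was -0.65 (SE 0.05, limma adjusted p = 1.2e-05).

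Pfkm, the isoform that predominates in skeletal muscle, had nearly equal values in the samples without NaAc (12.1, 12.3, 12.2, 12.2 and 12.2 FPKM). In CD8+4T1+NaAc it was at 13.4, 17.1, 17.3, 15.8 and 16.8 FPKM. All NaAc samples were higher, and replicate 1 was the one closest to the other group. The rise was 1.31-fold (95% interval 1.18 to 1.45; log2 fold change 0.39, SE 0.07, limma adjusted p = 0.0011), and without NaAc replicate 1 the log2 fold change was 0.45.

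The share of Pfkm in phosphofructokinase FPKM was 9.66 ± 0.412% (SD, n = 5) without and 18.7 ± 1.75% (n = 5) with NaAc, a difference of 9.03 percentage points (exact permutation p = 0.00794, adjusted 0.011). Sample by sample it was 9.82, 9.23, 9.66, 10.3 and 9.34% without NaAc and 15.7, 19.5, 20.1, 18.8 and 19.4% with it. No sample of one group came near the other. The share of Pfkp went from 59.5 ± 1.09% to 52.5 ± 2.03% (n = 5 each, exact permutation p = 0.00794, adjusted 0.011). That of Pfkl went from 30.8 ± 0.837% to 28.8 ± 1.09% (n = 5 each, exact permutation p = 0.016, adjusted 0.019), with overlap, since NaAc replicate 2 had 30.3% and CD8+4T1 replicate 2 had 29.7%. The ratio of Pfkp to Pfkm, 6.17 ± 0.35 (n = 5) without NaAc, was 2.84 ± 0.403 (n = 5) with NaAc. The family total was 126.4 ± 5.48 FPKM without and 86.1 ± 1.26 FPKM with NaAc (n = 5 each), or 0.681 times as high (exact permutation p = 0.00794, adjusted 0.011).

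The lengths by which the authors divided differ widely in this family, with 13401 bases for Pfkp, 6675 for Pfkl and 3340 for Pfkm. Counted as shares of fragments, without division by length, Pfkm held 3.12 ± 0.154% without and 6.52 ± 0.716% with NaAc (n = 5 each, exact permutation p = 0.00794, adjusted 0.011). On that scale the share of Pfkl was 0.183 percentage points higher with NaAc rather than lower, and was not called (exact permutation p = 0.79). The fragment share of Pfkp was 77.0 ± 0.79% without and 73.4 ± 1.43% with NaAc (n = 5 each). Its difference was -3.59 percentage points (exact permutation p = 0.00794, adjusted 0.011). Pfkm and Pfkp overlap other genes in the genome, and the strand setting of the counting is not given in the sources used here. The peptidase gene Senp1, which overlaps Pfkm, was at 10.9 ± 0.76 and 10.3 ± 0.643 FPKM, and Pitrm1, which overlaps Pfkp, at 14.6 ± 0.68 and 15.1 ± 1.18 FPKM (n = 5 each, without and with NaAc).

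**Figure D2:**
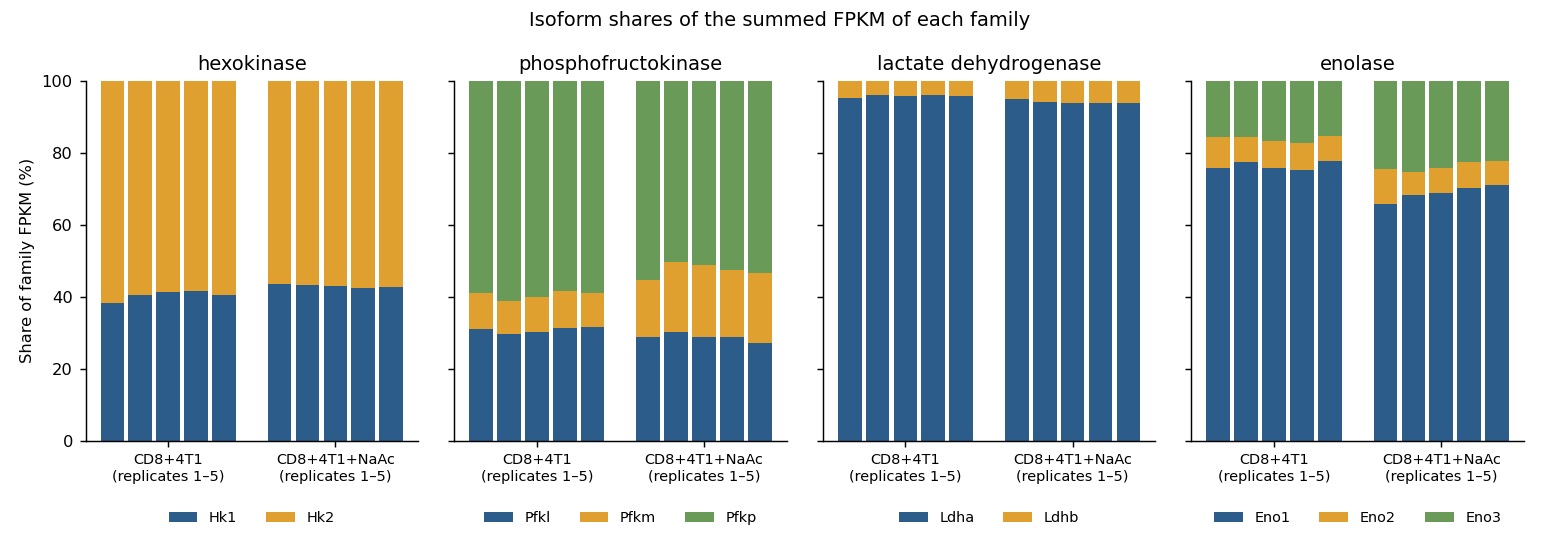
Share of each isoform in the summed FPKM of its family (vertical axis, %), with 1 bar per sample, 5 CD8+4T1 samples on the left and 5 CD8+4T1+NaAc samples on the right of each panel. The Pfkm share is 9.66% on average without and 18.7% with NaAc, the Eno3 share 16.1% and 23.7%, and Ldha holds at least 93.9% in each sample.

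Lactate dehydrogenase was almost entirely Ldha, whose product, the A (muscle) subunit, favors the reduction of pyruvate to lactate and is known for its rise in activated T cells. Ldha was at 699, 845, 802, 803 and 874 FPKM in CD8+4T1 replicates 1 to 5 and at 453, 522, 518, 486 and 547 FPKM in CD8+4T1+NaAc replicates 1 to 5. The highest NaAc sample remained below the lowest sample without NaAc, and a replicate 1 was the lowest in each group. The level with NaAc was 0.628 times that without (95% interval 0.561 to 0.704; log2 fold change -0.67, SE 0.07, limma adjusted p = 8.7e-05), a difference of means from 804.7 ± 66.5 to 505.1 ± 36.1 FPKM (n = 5 each).

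Ldhb, which encodes the B (heart) subunit, was at 34.1, 34.5, 35.7, 32.3 and 37.4 FPKM without and 24.2, 32.9, 33.8, 31.4 and 34.8 FPKM with NaAc. The groups overlapped, and the lowest value was again that of NaAc replicate 1. No change passed the test (log2 fold change -0.16, 95% interval -0.36 to 0.05, limma adjusted p = 0.21), and that interval still allows a fall to 0.778 times the level without NaAc. Without NaAc replicate 1 the log2 fold change of Ldhb was -0.07 (95% interval -0.18 to 0.05, adjusted p = 0.31), which allows a fall to 0.883 times.

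Ldha therefore lost share although it kept its dominance. It held 95.8 ± 0.315% (SD, n = 5) of the family without and 94.2 ± 0.432% (n = 5) with NaAc, 1.67 percentage points less (exact permutation p = 0.00794, adjusted 0.011). The values of its groups did not overlap, with 95.3 to 96.1% without and 93.9 to 94.9% with NaAc. Leaving out NaAc replicate 1, the share with NaAc was 93.98 ± 0.0879% (n = 4, exact permutation p = 0.00794, adjusted 0.012). As a share of fragments, without division by length, Ldha held 97.98 ± 0.156% without and 97.15 ± 0.218% with NaAc (n = 5 each). That difference was -0.837 percentage points (exact permutation p = 0.00794, adjusted 0.011). Expressed as a ratio, there were 23.1 ± 1.75 (n = 5) units of Ldha FPKM for each of Ldhb without NaAc and 16.2 ± 1.41 (n = 5) with NaAc. The family total was 839.5 ± 67.5 FPKM without and 536.5 ± 40.1 FPKM with NaAc (n = 5 each), 0.639 times as high (exact permutation p = 0.00794, adjusted 0.011). The testis genes Ldhc and Ldhal6b were at most 0.191 FPKM and at 0, and the 28 annotated Ldha copies held a median of 0.276% of the fragments assigned to Ldha and its copies.

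Enolase changed in makeup, whereas the fall of its total depended on the scaling, on single samples and on the treatment of Eno1 copies. Eno1, the widely expressed alpha isoform, was at 295, 329, 314, 303 and 326 FPKM without NaAc and at 201, 269, 267, 276 and 283 FPKM with it. The groups were separate, and replicate 1 of NaAc lay far below the other 4 of its group. The log2 fold change was -0.28 (SE 0.09, limma adjusted p = 0.03). This call was lost when the samples were scaled to the same total (log2 fold change -0.19, adjusted p = 0.099) or to the T cell markers (-0.13, adjusted p = 0.15), and also when CD8+4T1 replicate 2, 3 or 5 was left out (adjusted p = 0.067, 0.058 and 0.067). It held without NaAc replicate 1 (log2 fold change -0.20, adjusted p = 0.006) and without replicate 1 of both groups (-0.22, adjusted p = 0.0027).

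Eno3, the beta isoform that predominates in striated muscle, went the other way, at 60.3, 66.0, 68.7, 69.6 and 64.2 FPKM without NaAc. Its values were 75.1, 99.4, 93.5, 88.6 and 88.1 FPKM with NaAc. All NaAc samples were higher than all samples without it, and replicate 1 had the lowest of the NaAc values. The rise was 1.35-fold (95% interval 1.2 to 1.51; log2 fold change 0.43, SE 0.07, limma adjusted p = 0.0012).

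Eno2, the gamma isoform known from neurons, was at 33.9, 29.7, 30.8, 29.6 and 28.7 FPKM without NaAc. In CD8+4T1+NaAc it was at 29.8, 24.5, 27.7, 27.9 and 27.5 FPKM. The groups overlapped, as NaAc replicate 1 exceeded 3 of the samples without NaAc. Eno2 did not pass the test (log2 fold change -0.15, 95% interval -0.29 to -0.02, limma adjusted p = 0.078), but did without NaAc replicate 1 (log2 fold change -0.18, adjusted p = 0.03).

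The Eno3 share of enolase FPKM was 16.1 ± 0.867% (SD, n = 5) without and 23.7 ± 1.34% (n = 5) with NaAc, a difference of 7.68 percentage points, and the Eno1 share 76.5 ± 1.09% and 68.8 ± 2.04%, a difference of -7.64 points (exact permutation p = 0.00794, adjusted 0.011, for each). The shares were separate between the groups, Eno3 holding 15.3 to 17.3% without and 22.1 to 25.3% with NaAc. Eno2 had a share of 7.47 ± 0.729% without and 7.43 ± 1.34% with NaAc (n = 5 each, exact permutation p = 0.93), and the sign of its small difference depended on the sample left out (-0.623 percentage points without NaAc replicate 1, exact permutation p = 0.17). The enolase total was 409.7 ± 14.1 FPKM without and 375.4 ± 39.1 FPKM with NaAc (n = 5 each, exact permutation p = 0.032, adjusted 0.035). Without NaAc replicate 1 the fall in this total was 16.9 FPKM and was not called (exact permutation p = 0.071, adjusted 0.078), and it lost its call without any of CD8+4T1 replicates 2 to 5 as well (differences of -30.6, -33.4, -36.2 and -31.9 FPKM). Under T cell marker scaling its direction turned, to 5.88 FPKM higher with NaAc (exact permutation p = 0.62).

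Reads of Eno1 can be shared with near-identical genes. Of the 1928 windows of 100 bases in the Eno1 transcript with the longest coding sequence (GENCODE M21), 59% occur identically in transcripts of other genes, chiefly Eno1b (58.6%) and Gm4735 (43.3%). In the deposited table the 11 annotated Eno1 copies held a median of 43.8% (39.0 to 47.1%) of the fragments assigned to Eno1 and its copies. Gm4735 was listed at 595 ± 56.6 FPKM without and 347 ± 19.7 FPKM with NaAc, and Eno1b at 273 to 347 FPKM without and 195 to 310 FPKM with NaAc (n = 5 each). With the FPKM of the copies added to Eno1, the Eno3 share was 4.95 ± 0.349% without and 8.93 ± 0.612% with NaAc, a difference of 3.98 percentage points (n = 5 each, exact permutation p = 0.00794, adjusted 0.0095). With Eno1b and Eno4 counted as enolase genes of their own, the Eno1 share was 43.2 ± 0.887% and 40.3 ± 0.614%, a difference of -2.91 points (n = 5 each, exact permutation p = 0.00794, adjusted 0.011). As a share of fragments, Eno3 held 5.89 ± 0.358% and 9.25 ± 0.627% (n = 5 each, exact permutation p = 0.00794, adjusted 0.011). With the fragments of the copies added to Eno1, an alternative chosen after seeing the data, the Eno3 share was 9.88 ± 0.597% without and 16.1 ± 0.948% with NaAc (n = 5 each, exact permutation p = 0.00794, adjusted 0.0095), and the enolase total fell by 112.5 FPKM (exact permutation p = 0.00794, adjusted 0.0095). With the FPKM of the copies added, the total fell by 336 FPKM, to 0.748 times that without NaAc (exact permutation p = 0.00794, adjusted 0.0095), and the Eno2 share was higher with NaAc by 0.472 percentage points (exact permutation p = 0.048, adjusted 0.048). With Eno1b and Eno4 in the sum, the difference of the total was -83.3 FPKM and was not called (exact permutation p = 0.063, adjusted 0.069). By contrast, no window of 100 bases of Hk1, Hk2, Pfkl, Pfkm, Pfkp, Eno2 or Eno3 occurred in a transcript of another gene, and 1.28% of those of Ldha and 8.8% of those of Ldhb did.

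The rises of Pfkm and Eno3, both muscle isoforms, can be set beside the markers of striated muscle. Of 10 such genes 3 passed the filter, and the sum over the 10 genes was 7.02 to 9.68 FPKM without and 7.03 to 9.84 FPKM with NaAc. Myh1, Myh4 and Myod1 were at 0 in all samples, and muscle creatine kinase (Ckm) did not exceed 0.187 FPKM. Among the 3 tested genes, Actn2 (0.563 ± 0.111 and 0.845 ± 0.087 FPKM) and Tnnt3 (1.11 ± 0.0699 and 1.56 ± 0.242 FPKM, n = 5 each) were called higher (limma adjusted p = 0.0498 and 0.021). Over all genes tested, 17.6% were. The third, Mylpf, had the highest mean of the 10 genes in both groups and was not called. It was at 5.88 ± 1.1 FPKM without and 5.45 ± 1.01 FPKM with NaAc (n = 5 each). In NaAc replicates 1 to 5 the epithelial sum was 155.8, 289.0, 195.9, 236.6 and 137.6 FPKM. Beside these stand 13.4, 17.1, 17.3, 15.8 and 16.8 FPKM of Pfkm and 75.1, 99.4, 93.5, 88.6 and 88.1 FPKM of Eno3. Pfkm was highest in replicate 3 and Eno3 in replicate 2, and both were lowest in replicate 1, while the epithelial sum was highest in replicate 2 and lowest in replicate 5.

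The size of each change also depends on how samples are made comparable. The listed genes held 95.5 to 97.9% of the fragments behind the FPKM without NaAc and 89.8 to 92.1% with NaAc, and scaling to the T cell markers moved the median change over the tested genes from -0.02 to 0.13 on the log2 scale. Called genes numbered 2764 higher and 2978 lower with the FPKM as deposited, 3783 and 2068 with the same total, and 4123 and 1255 with T cell marker scaling. Under this last scaling Hk2, Pfkl, Pfkp and Ldha were called lower (log2 fold changes of -0.39, -0.50, -0.58 and -0.52) and Pfkm and Eno3 higher (0.54 and 0.58). The shares within a family do not depend on the scaling of a sample.

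**Figure D3:**
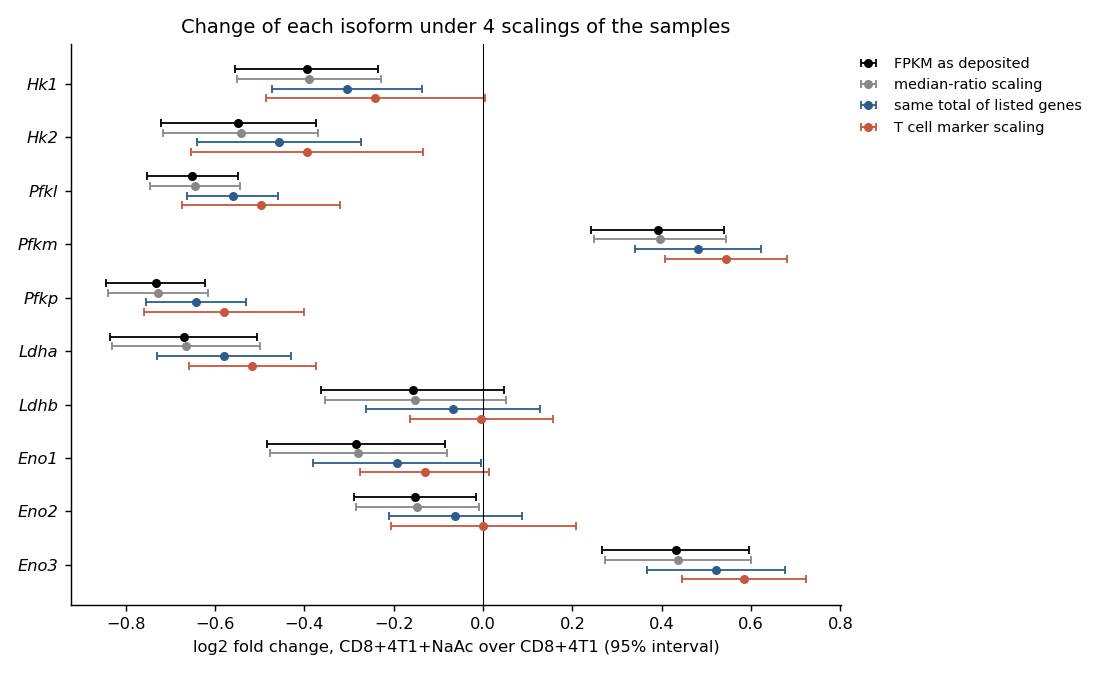
Log2 fold change of each isoform, CD8+4T1+NaAc over CD8+4T1, with its 95% interval (horizontal axis), under 4 ways of scaling the 10 samples, each in its own color. Hk2, Pfkl, Pfkp and Ldha lie below 0 and Pfkm and Eno3 above 0 under each of the 4, while the values of Ldhb and Eno2 move to about 0 under T cell marker scaling.

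Sequence upstream of the genes was searched for ACGTG, the core that hypoxia-inducible factors bind, and for CACGTG, the E-box that MYC and MAX bind, on both strands of the 250 bases before each RefSeq start (GRCm38.p6). CACGTG reads the same on both strands and contains ACGTG once on each, so that it counts as 2 matches of the shorter motif. All 10 isoforms had at least 1 start, 17 in all. ACGTG lay in 4 of these 17 windows (1 of 2 of Ldha, the 1 of Hk2 and 2 of 4 of Pfkm) and CACGTG in 2 (1 each of Ldha and Pfkm), while 16.6% of the 32851 promoter windows in the table hold the former and 6.02% the latter. The 2 windows below belong to the lactate dehydrogenase and hexokinase genes that are most abundant in FPKM and that fell. In fragments, Hk1 exceeded Hk2 in 2 of 5 samples without and 5 of 5 with NaAc. Only windows with a match are printed. Hk1, Pfkl, Pfkp and Eno1 fell as well and held no match of ACGTG, while Pfkm rose and held matches in 2 of 4 windows. The printed windows run 5′ to 3′ on the strand of the gene, with matches of ACGTG or its reverse complement in capitals. That of Ldha (chr7:46845554-46845803, + strand) holds 5 matches of ACGTG in 3 runs, 2 of them CACGTG, and that of Hk2 (chr6:82774455-82774704, - strand) holds 2. A match describes these letters only, and its absence in the other windows says nothing about the factors.
Ldha: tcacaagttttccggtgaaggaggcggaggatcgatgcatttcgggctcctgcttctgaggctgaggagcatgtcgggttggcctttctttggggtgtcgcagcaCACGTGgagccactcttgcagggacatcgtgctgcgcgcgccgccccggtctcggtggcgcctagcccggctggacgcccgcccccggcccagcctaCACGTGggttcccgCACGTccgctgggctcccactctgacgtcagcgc
Hk2: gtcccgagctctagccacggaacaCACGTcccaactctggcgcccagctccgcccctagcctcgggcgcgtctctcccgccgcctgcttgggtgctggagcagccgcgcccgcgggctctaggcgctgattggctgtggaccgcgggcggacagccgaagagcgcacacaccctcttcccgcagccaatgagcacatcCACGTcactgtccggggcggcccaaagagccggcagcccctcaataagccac

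A list of 9 transcription factor genes held factors that bind such motifs, their partners, and the forkhead genes Foxk1 and Foxk2. Of these 9, 2 were called higher and 2 lower, counts near the 17.6% and 19.0% of all genes tested. Hif1a, at 66.3 ± 6.54 and 68.9 ± 6.11 FPKM (n = 5 each, without and with NaAc), and Myc, at 72.4 ± 6.28 and 80.8 ± 6.37 FPKM, did not pass the test (limma adjusted p = 0.63 and 0.11). Epas1, which encodes HIF-2 alpha, was at 2.24 ± 0.603 and 3.83 ± 0.616 FPKM and rose (log2 fold change 0.76, limma adjusted p = 0.0045), as did the glucose-responsive factor Mlxip, from 18.9 ± 0.978 to 29.96 ± 1.79 FPKM (log2 fold change 0.66, adjusted p = 2.2e-05). Max, the partner of MYC, fell from 37.1 ± 2.17 to 29.97 ± 1.44 FPKM (adjusted p = 0.0012), and Mlx, the partner of MLXIP, from 15.8 ± 0.633 to 12.1 ± 2.44 FPKM (adjusted p = 0.035).

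The enzymes of the other steps of glycolysis were compared in the same limma fit. Of 15 such genes 12 were tested, of which 4 fell and 1 rose (19.0% and 17.6% over all genes tested). Triosephosphate isomerase (Tpi1) went from 363 ± 22.1 to 255 ± 25.6 FPKM (log2 fold change -0.51, adjusted p = 5.8e-04) and phosphoglycerate kinase (Pgk1) from 794 ± 52.4 to 572 ± 55.5 FPKM (-0.48, adjusted p = 9.2e-04). Glucose-6-phosphate isomerase (Gpi1) had a log2 fold change of -0.41 and pyruvate kinase (Pkm) of -0.38 (adjusted p = 4.5e-04 and 8.9e-04). The median over the 12 genes was -0.19, and 7 did not pass the test, among them Gapdh, whose values spread from 10.7 to 70.7 FPKM in the samples without NaAc alone.

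Transport of glucose and lactate gave 3 genes lower and 1 higher of 6 tested (19.0% and 17.6% over all genes tested). The glucose transporter genes Slc2a1 (67.6 ± 3.96 to 44.1 ± 2.87 FPKM, log2 fold change -0.61) and Slc2a3 (101.3 ± 8.3 to 62.1 ± 4.06 FPKM, -0.70) fell, as did the lactate exporter gene Slc16a3 (59.5 ± 3.79 to 40.0 ± 1.32 FPKM, -0.57), with limma adjusted p of 4.3e-05, 4.6e-05 and 3.1e-05. Slc2a6 rose from 26.9 ± 1.42 to 39.9 ± 5.05 FPKM (0.56, adjusted p = 7.1e-04).

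Of 9 tested regulators of the flux through these steps, 2 were called lower and 2 higher, counts near the 19.0% and 17.6% of all genes tested. Both genes named next make the bifunctional enzyme that sets fructose 2,6-bisphosphate, the activator of phosphofructokinase, and they went opposite ways. Pfkfb3 was at 10.2 ± 0.811 FPKM without and 7.43 ± 0.378 FPKM with NaAc (limma log2 fold change -0.45, adjusted p = 4e-04), and Pfkfb4 at 3.18 ± 0.136 and 5.37 ± 0.392 FPKM (0.74, adjusted p = 3.4e-05). Of the pyruvate dehydrogenase kinases, which inhibit the conversion of pyruvate to acetyl-CoA, Pdk1 fell from 9.65 ± 0.383 to 5.78 ± 0.332 FPKM (-0.73, adjusted p = 1.7e-05) and Pdk2 rose from 1.66 ± 0.179 to 2.31 ± 0.34 FPKM (0.45, adjusted p = 0.018).

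**Figure D4:**
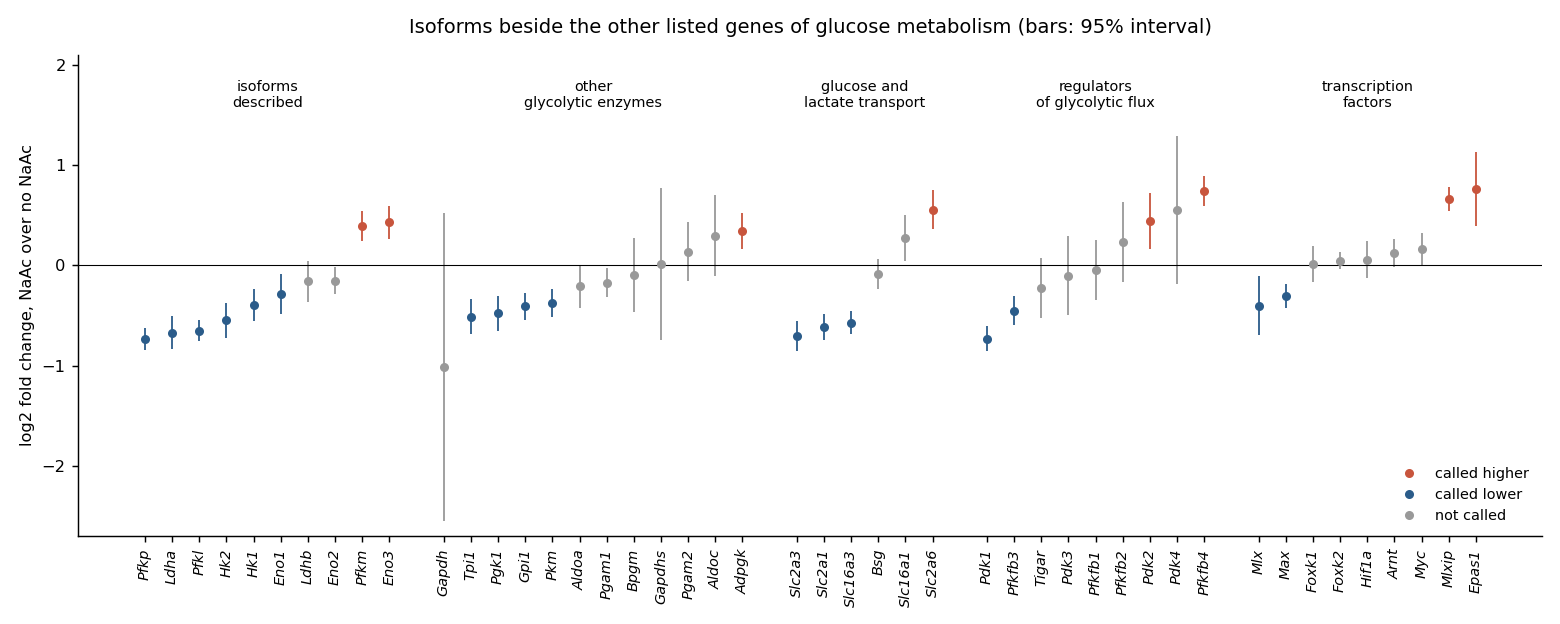
Log2 fold change with 95% interval (vertical axis) of the 10 isoforms and of the tested genes of 4 lists of glucose metabolism, CD8+4T1+NaAc over CD8+4T1, 5 samples a group. Blue points were called lower, red points higher and grey points not called. Each list holds genes called in both directions.

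The genes that followed the leading isoform of each family (the highest in FPKM) most closely were sought among 7751 other genes averaging 5 FPKM or more. Closeness was the root mean square difference of centered log2 values over the 10 samples. For Pfkp these were the glucose transporter gene Slc2a3 (difference 0.07), Ostc (0.07) and Pdk1 (0.07), against an SD of 0.39 for Pfkp itself. For Ldha they were Rps3 (0.05), Prpf38a (0.06) and Rps13 (0.07), with an SD of 0.37 for Ldha. Blzf1 (0.05), Srp9 (0.07) and Cflar (0.07) were nearest to Hk2, whose SD was 0.31, and Impdh2 (0.04), Clns1a (0.05) and Exoc2 (0.05) to Eno1, whose SD was 0.21. These are descriptions over samples that fall into 2 groups, and a gene that differs between the groups by the same amount will lie close.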

How the data were processed

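Libraries of CD8+ T cells taken from 4T1 co-cultures were analyzed, with groups and replicate numbers taken from the sample labels (5 samples each). The authors deposited FPKM for 57825 genes, with 1 column per sample and the gene length in bases as an other column beside it. The submitters' processing notes name fastp, HISAT2 2.0.5, StringTie 1.3.3b and featureCounts 1.5.0-p3. The genome build, the strand setting and the treatment of reads that map to several genes are not given in the sources used here, and 0 of the 10 isoforms have the start and end of GRCm38 (GENCODE M21) in the table.

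No count model was used for FPKM. FPKM times length gave whole fragments (within 0.1) for 100% of values in every sample. Genes averaging 0.5 FPKM or more were fitted with limma 3.58.1 (R 4.3.3), with variance trend and robust moderation, on log2(FPKM + 0.1). Family shares and totals were compared by exact permutation. Python 3.11.15, numpy 2.4.6, pandas 2.3.3 and matplotlib 3.10.9 served for the rest, and the fitting was tested on simulated data. Alternatives covered pseudocounts, filters, 3 scalings, moderation, limma's voom on recovered fragments, a replicate block, samples left out, copies and other family genes. Intervals cover the spread between samples only.

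The isoforms and gene lists were chosen with earlier results of these data known. All 10 isoforms are named, as are up to 4 called genes per list, those with the largest change, and the 3 genes nearest to the leading isoform of each family.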

Additional observations from a re-analysis of the deposited data

Results flagged for a closer look

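Within each group of 5 samples, the gap between the most extreme sample and its neighbor was compared with the range of the group for every isoform level, share and family total (44 groups of values, of which chance marks about 1 in 20). A gap above 0.71 of the range occurred 4 times, each time for replicate 1 of CD8+4T1+NaAc. Its Eno1 level was 200.9 FPKM, against 267 FPKM in the next sample. The enolase total of the same sample was 305.8 FPKM, with the other 4 between 388 and 398 FPKM. Its Ldha share was 94.9%, above the 94.1% of the next sample and closest to the samples without NaAc. Its Eno2 share was 9.73% and the next 7.14%. This is also the sample with the fewest genes above 0 (20233) and the lowest T cell marker sum (1286 FPKM), and the part of these in the 4 values was not tested.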

How the results depend on the processing

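Pseudocounts of 1 and 0.01, no filter, a mean of at least 5 FPKM and limma without trend and robust moderation left each isoform on its side of the threshold and in its direction. Of 410 recomputed tests, 30 lost their call, 3 gained one and 12 changed sign, 3 of these sign changes being among the calls lost or gained. The calls lost include all those of shares and totals in the replicate block, where no call was possible. Other tests could not change, since Hk1, Hk2, Pfkl, Pfkm and Pfkp have no annotated copies to add. Scaling to the T cell markers ended the calls of Hk1 (log2 fold change -0.24), Eno1 (-0.13) and the hexokinase total (-22.1 FPKM), and turned Eno2 (0.00064) and the enolase total (5.88 FPKM). Same total and voom ended the call of Eno1 (-0.19 in both), and same total, median-ratio scaling and other family genes that of the enolase total (-9.75, -32.9 and -83.3 FPKM). The Eno2 share difference turned with other family genes (0.134 percentage points), with copies added as FPKM (0.472, exact permutation p = 0.048) or as fragments (0.415), and as a share of fragments (0.419), where that of Pfkl turned as well (0.183). The last 2 alternatives were chosen after seeing the data. The cause was not tested.

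With samples left out, log2 fold changes ranged from -0.32 to -0.20 for Eno1 and from -0.18 to -0.11 for Eno2 (called without NaAc replicate 1, and at -0.14 without replicate 1 of both groups), differences of shares from -0.623 to 0.26 percentage points for Eno2 and from -2.42 to -1.65 for Pfkl (its call was lost without replicate 1 of both groups, at -2.003), and the enolase total from -40.0 to -16.9 FPKM. Over all genes, lower calls went from 2978 to 1255 with T cell scaling and higher calls from 2764 to 1257 with the filter at 5 FPKM, where fewer genes were tested (7800).

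Same-numbered samples did not deviate together (mean correlation 0.014, from -0.03 to 0.07, 2 of 5 samples closest to their own number). With 5 samples a group this cannot tell whether same numbers share a mouse or culture, which the labels do not say. With the replicate block in limma, 2551 genes were called higher and 2848 lower, and no isoform changed its call. For shares and totals the smallest exact p within numbers is 0.0625, so that no call was possible. The differences in this block were 2.57 (Hk1), -2.04 (Pfkl), 9.03 (Pfkm), -6.98 (Pfkp), -1.67 (Ldha), -7.64 (Eno1) and 7.68 (Eno3) percentage points, and -33.0, -40.4, -303 and -34.3 FPKM for the totals of hexokinase, phosphofructokinase, lactate dehydrogenase and enolase.

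Each isoform rested on at least 650 fragments in a sample, and each group held 5 samples. Whether depth or the number of samples limited the calls was not tested.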
